A study of Homo sapiens with 9 samples.

Results

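The genes described here are the WNT ligands with their receptors, secreted inhibitors, cytoplasmic relay proteins and DNA-binding partners in TC32 cells, an established Ewing sarcoma line that carries the EWS::FLI1 fusion. They were chosen by symbol: WNT, FZD, DKK1 to DKK4, SFRP1 to SFRP5, RSPO1 to RSPO4, LGR4 to LGR6, LRP5, LRP6, ROR1, ROR2, WIF1, NOTUM, CTNNB1, AXIN1, AXIN2, NKD1, NKD2, LEF1, TCF7, TCF7L1 and TCF7L2. This rule found 59 of the 60603 genes in the deposited table, with 19 ligands, 14 receptors, 10 secreted inhibitors, 7 R-spondins or R-spondin receptors, 5 cytoplasmic proteins and 4 DNA-binding partners. Polyadenylated RNA was sequenced from 3 groups of 3 biological replicates. siEF cells were transfected with an siRNA that spans the breakpoint of the fusion, siNEG cells with a nonspecific siRNA and media cells with none, and all were taken at 30 h. All 3 groups are the same cells, labelled WT, in medium with 10% serum, so that every comparison concerns a single line, a single breakpoint siRNA and a single time. The question addressed is which of these genes change when the fusion is silenced.

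WNT proteins are secreted lipid-modified ligands that bind frizzled receptors. Together with the coreceptors LRP5 and LRP6 they protect beta-catenin (CTNNB1) from the AXIN and APC destruction complex, and beta-catenin then acts in the nucleus through the TCF/LEF factors. Ligands such as WNT5A act mainly through ROR receptors and the planar cell polarity proteins without beta-catenin. R-spondins bind LGR receptors and keep frizzled receptors at the surface, whereas DKK and SFRP proteins are secreted inhibitors that block LRP6 or sequester WNT ligands. In Ewing sarcoma, canonical WNT signalling has been described as antagonistic to part of the EWS::FLI1 program.

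Total expected counts (the number of reads that RSEM assigns to genes) ranged from 20727706 to 33134581 per library. The 10 most abundant genes of a library took 12.3% to 12.9% of siEF counts and 5.78% to 6.62% of the counts elsewhere. FLI1, which carries the reads of the fusion, had 1063, 725 and 1148 counts in siEF and 1537, 1646 and 1497 in siNEG, a Log2FC of -0.35 (SE 0.057, adjusted P = 2.88e-05). The paper states that the silencing was checked by qPCR, with a 3-cycle change in expression. NR0B1, a gene induced by the fusion, had a Log2FC of -2.97, and PHLDA1, a gene repressed by the fusion, of 5.22. Of 6 Ewing sarcoma markers, NKX2-2, NR0B1, PRKCB, STEAP1 and CCND1 fell in siEF and CD99 had a Log2FC of 0.23 against siNEG and -0.11 against media. Their summed level lay at 464.0 to 485.5 CPM in siEF, against 2482 to 2612 CPM in siNEG. CCND1 made up most of the siNEG sum, with a mean of 1868 CPM in siNEG and 95.4 CPM in siEF. All 4 epithelial markers (KRT8, KRT18, CDH1 and EPCAM) rose from siNEG to siEF, with a summed level between 605.7 and 654.7 CPM in siEF, 102.7 and 108.2 CPM in siNEG and 118.8 and 133.9 CPM in media, of which KRT18 made up nearly all. CDH1 had 0 counts in every siNEG library. EPCAM had 13, 9 and 9 counts in siEF, 1, 3 and 0 in siNEG and 13, 10 and 13 in media, so that it was low in siNEG alone (Log2FC of siEF against media 0.021, adjusted P = 0.97). Endothelial markers summed to 1.81 to 2.69 CPM in siEF and 3.43 to 5.06 CPM in the controls, but did not move together. PECAM1, the most abundant, fell with a Log2FC of -1.22 against siNEG. CDH5 went the other way, with a Log2FC of 1.65 against siNEG, which did not pass, and 2.69 against media. VWF had at most 3 counts in a library. Leukocyte markers summed to at most 0.984 CPM in any library, with CD3E at 0 and overlapping ranges in the 3 groups. The summed Ewing sarcoma, epithelial and endothelial markers and the top-gene share separated siEF from both controls, and their part in the results was not tested.

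The sequences before the transcription start are shown for 4 genes on which the results turn: DKK1, the inhibitor with the highest level, TCF7L2, the DNA-binding partner that rose most, FZD1, the main frizzled receptor that fell, and RSPO3, an R-spondin with 0 counts in siNEG. Each is the 250 bases before the start (RefSeq, GRCh38.p14), 5′ to 3′ on the plus strand, which is the coding strand of all 4, and the capitals mark a match to a motif on either strand.
DKK1 chr10:52314031-52314280: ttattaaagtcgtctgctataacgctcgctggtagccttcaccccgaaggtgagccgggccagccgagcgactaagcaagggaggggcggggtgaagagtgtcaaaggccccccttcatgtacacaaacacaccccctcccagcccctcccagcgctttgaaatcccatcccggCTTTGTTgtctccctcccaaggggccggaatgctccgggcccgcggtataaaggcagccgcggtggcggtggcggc
TCF7L2 chr10:112949997-112950246: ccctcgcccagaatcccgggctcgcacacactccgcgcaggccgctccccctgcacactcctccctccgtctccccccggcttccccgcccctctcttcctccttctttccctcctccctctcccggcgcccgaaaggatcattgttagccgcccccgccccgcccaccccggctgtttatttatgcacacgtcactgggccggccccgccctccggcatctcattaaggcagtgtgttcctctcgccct
FZD1 chr7:91264183-91264432: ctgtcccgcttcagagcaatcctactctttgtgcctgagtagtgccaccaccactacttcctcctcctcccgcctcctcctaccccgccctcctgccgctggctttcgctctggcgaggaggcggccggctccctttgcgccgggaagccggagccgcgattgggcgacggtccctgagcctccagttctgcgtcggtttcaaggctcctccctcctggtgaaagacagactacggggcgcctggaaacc
RSPO3 chr6:127118421-127118670: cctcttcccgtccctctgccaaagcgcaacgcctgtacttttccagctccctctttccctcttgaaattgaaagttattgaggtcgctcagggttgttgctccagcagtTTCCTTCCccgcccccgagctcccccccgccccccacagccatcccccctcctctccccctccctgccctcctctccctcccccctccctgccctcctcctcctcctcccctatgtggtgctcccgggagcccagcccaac

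The capitals in DKK1 are CTTTGTT, a sequence bound by TCF/LEF factors, at positions -76 to -70 from the start. In RSPO3 they are the complement of GGAAGGAA, a tandem ETS core, at positions -141 to -134. The windows shown for TCF7L2 and FZD1 held none of the motifs. The motifs searched on both strands were GGAAGGAA, CCGGAAG (a single ETS site, which shares GGAA with the tandem), CTTTGAT and CTTTGTT (TCF/LEF sites that share CTTTG) and TGANTCA (AP-1), in windows of 300 bases that run from 250 before to 50 after each start. RefSeq windows were matched for 41 of the 59 genes, which had 49 windows among 35116 in the table. GGAAGGAA lay in 2 of the 49 windows and in 3.67% of all windows, CCGGAAG in 2 and 10.3%, CTTTGTT in 4 and 5.2%, CTTTGAT in 0 and 2.62%, and TGANTCA in 0 and 7.71%. Over the 15964 windows of genes tested for expression, the shares were 3.57%, 16.1%, 3.72%, 1.56% and 5.29%, in the same order. The 49 windows include those of genes below the filter on low counts. The genes with a match were RSPO3 and TCF7L2 (in another of its windows) for GGAAGGAA, AXIN1 and TCF7 for CCGGAAG, and DKK1, TCF7, TCF7L2 (in another window) and WNT3 for CTTTGTT. No window was matched for AXIN2, DKK2, DKK3, DKK4, FZD10, FZD2, FZD3, FZD6, FZD7, LGR5, LRP6, NKD1, NOTUM, RSPO2, SFRP1, WNT10B, WNT11 and WNT7B.

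Of the 59 genes, 39 passed the filter on low counts and were tested. Against siNEG, 18 rose and 4 fell in siEF, at an adjusted P under 0.01 over all genes tested and a Log2FC beyond 1 (edgeR's quasi-likelihood test). Together these were 56.4% of the 39 genes, beside 28.8% of the 16093 genes tested in the whole table, of which 17.1% rose and 11.7% fell. The median Log2FC was 0.86 over the 39 genes and 0.046 over all genes tested. RSPO3, WNT11, WNT7B and WNT9B passed the filter only through their siEF libraries, so that their inclusion already required a difference. LGR6, WNT16 and SFRP1 also passed only with their siEF counts, since too few control libraries lay above the filter. With the siNEG and media libraries alone, 32 of the genes could be tested. The filter on low counts also decided the number that rose: with at least 10 counts required in every library, 29 of the genes could be tested, and 10 rose and 3 fell. The shares of all genes given here hold for the main filter and are no background for these counts. At the adjusted P alone, 23 were higher and 7 lower (65.4% of all genes tested passed, 33.6% higher and 31.7% lower), and for 24 higher and 8 lower genes the siEF and siNEG libraries did not overlap, as they did not for 76.9% of all genes tested. In bulk RNA, a change in the number of cells that express a gene and a change in RNA per cell cannot be told apart.

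**Figure D1:**
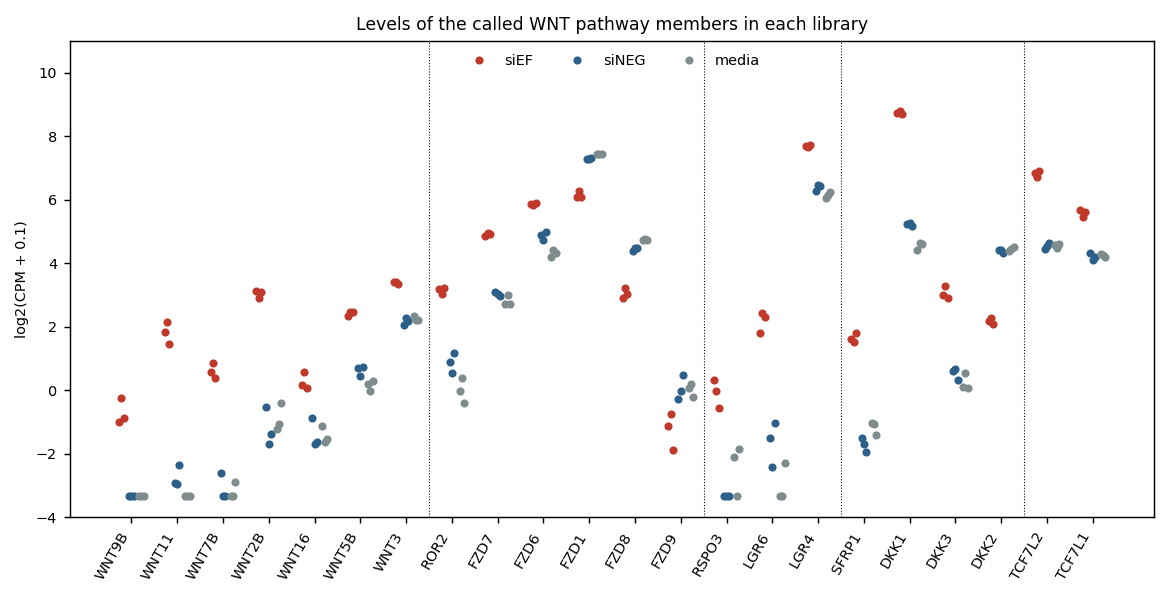
Level of the 22 genes that rose or fell between siNEG and siEF, as log2(CPM + 0.1), with 1 dot per library (red siEF, blue siNEG, grey media) and dotted lines between ligands, receptors, the R-spondin axis, secreted inhibitors and DNA-binding partners. The siEF dots lie above those of siNEG for 18 genes and below for FZD1, FZD8, FZD9 and DKK2, and the lowest row of dots marks libraries with 0 counts.

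Among the ligands, 7 of the 9 tested rose in siEF and none fell, beside 17.1% of all genes tested that rose. Of those that rose, WNT11, WNT16, WNT7B and WNT9B were tested only through their siEF counts. The other 10 ligands were not tested. WNT5A stayed the ligand with the highest level in every group. WNT5A (ENSG00000114251.14, chr3:55465715-55490539), a ligand that acts mainly without beta-catenin, was at 177, 178 and 182 CPM in the 3 siEF libraries, 215, 227 and 220.2 CPM in siNEG and 175, 188 and 195 CPM in media. The siEF libraries lay below those of siNEG and within the range of media. Its Log2FC was -0.302 (SE 0.046, adjusted P = 1.74e-05) against siNEG, short of the fold cut-off, and -0.056 (SE 0.046, adjusted P = 0.282) against media. Per kb of exon, WNT5A was at 25.0 ± 0.382 CPM per kb (SD, n = 3) in siEF and 30.8 ± 0.837 CPM per kb (SD, n = 3) in siNEG, where WNT3, the next ligand, was 37.6 times lower. WNT5A made up 94.8 ± 0.377% of the summed WNT level per kb in siNEG, 93.5 ± 0.838% in media and 79.1 ± 1.304% in siEF (SD, n = 3). The summed level itself was 31.6 ± 0.309 CPM per kb in siEF, 32.5 ± 0.989 in siNEG and 27.8 ± 1.29 in media (SD, n = 3).

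The ligand that rose to the second highest level was WNT3 (ENSG00000108379.10, chr17:46762506-46833154), a ligand that signals through beta-catenin. It was at 10.6, 10.4 and 10.04 CPM in siEF, 4.08, 4.77 and 4.42 CPM in siNEG and 4.898, 4.505 and 4.505 CPM in media, with no overlap between siEF and the controls. Its Log2FC was 1.22 (SE 0.112, adjusted P = 3.82e-08), which did not pass a test against the fold cut-off itself (edgeR's glmTreat, adjusted P = 0.0381). WNT5B (ENSG00000111186.13, chr12:1529891-1647212), the paralog of WNT5A, was at 4.99, 5.44 and 5.38 CPM in siEF and 1.52, 1.27 and 1.57 CPM in siNEG. In media it was at 1.04, 0.888 and 1.12 CPM, below siNEG in each library. Its Log2FC against siNEG was 1.86 (SE 0.186, adjusted P = 1.21e-07).

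WNT2B, WNT11, WNT16, WNT7B and WNT9B had at most 19 counts in any control library and at least 11 in every siEF library. WNT2B (ENSG00000134245.18, chr1:112466541-112530165), a ligand of the canonical pathway, had 237, 149 and 245 counts in siEF and 19, 7 and 9 in siNEG, or 8.56, 7.297 and 8.397 against 0.6002, 0.206 and 0.288 CPM. The Log2FC was 4.47 (SE 0.292, adjusted P = 5.37e-10). Its exons share 2665 bases with ST7L on the other strand, which had 1481 counts over the siEF and 1572 over the siNEG libraries. The media libraries, with 0.327, 0.381 and 0.663 CPM, lay with siNEG.

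WNT11 (ENSG00000085741.13, chr11:76186325-76210736), a ligand of the planar cell polarity branch, had 96, 89 and 77 counts in siEF, 1, 1 and 3 in siNEG and 0 in every media library. The ratio of siEF to siNEG was 65.6 (95% counting interval 27.8 to 204, exact), and siEF was at least 35.1-fold higher than media against a floor of 3 counts per library. WNT11 thus went from near 0 to 3.49 ± 0.860 CPM (SD, n = 3). The fitted Log2FC moved from 5.96 to 6.64 without siNEG replicate 3, which held 3 of the 5 counts. WNT7B (ENSG00000188064.10, chr22:45920366-45977162), a ligand of the canonical pathway, had 38, 35 and 35 counts in siEF, 2, 0 and 0 in siNEG and 0, 0 and 1 in media, a ratio to siNEG of 67.6 (95% counting interval 18.3 to 566, exact). Both siNEG counts were in replicate 1, without which the fitted Log2FC was 8.36 in place of 5.84.

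WNT9B (ENSG00000158955.11, chr17:46833201-46886730), known from kidney development, had 11, 15 and 13 counts in siEF and 0 in all other libraries, and was at least 5.65-fold higher than in siNEG and at least 5.30-fold higher than in media. Its level, 0.526 ± 0.182 CPM (SD, n = 3), was the lowest among the ligands that rose. WNT16 (ENSG00000002745.13, chr7:121325367-121341104), known from bone, had 28, 28 and 28 counts in siEF, 14, 7 and 7 in siNEG and 11, 7 and 7 in media. Its Log2FC was 1.91 (SE 0.409), and it did not pass the test against the fold cut-off (glmTreat). The fitted Log2FC of WNT11, WNT7B and WNT9B depends on the small count that the fit adds. No P is given for these and WNT16, since all passed the filter only with their siEF counts.

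WNT10B was the remaining ligand tested and moved the other way without passing. It had 9, 9 and 20 counts in siEF, 14, 43 and 33 in siNEG and 50, 44 and 30 in media, with a Log2FC of -0.92 (SE 0.423, adjusted P = 0.0618) against siNEG and -1.47 (SE 0.413, adjusted P = 0.0043) against media. The siEF and siNEG libraries overlapped. Among the 10 ligands below the filter, WNT1, WNT2, WNT3A and WNT7A had 0 counts in all 9 libraries, which allows up to 3 counts, or between 0.0884 and 0.147 CPM, in a library, and WNT8A had 1 count in all. WNT10A had 12, 12 and 9 counts in siEF and 0, 1 and 2 in siNEG, a ratio of 13.8 (95% counting interval 4.32 to 70.2, exact), and was called higher in siEF when no filter was applied. WNT9A, with 13, 6 and 18 counts in siEF and 3, 4 and 0 in siNEG, was also called without the filter. WNT4, WNT6 and WNT8B had at most 6 counts in any library. The intervals and floors cover counting error only.

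The share of single genes in the frizzled level changed more than the level itself. The summed level of the 10 frizzled genes was 56.3 ± 1.66 CPM per kb in siEF, 53.1 ± 1.21 in siNEG and 58.6 ± 1.04 in media (SD, n = 3). FZD1 made up 42.9 ± 0.557% of it in siNEG and 18.2 ± 0.732% in siEF, and FZD6 13.4 ± 0.898% and 25.4 ± 1.17% (SD, n = 3). FZD7 made up 3.32 ± 0.184% in siNEG and 11.5 ± 0.175% in siEF. Per kb of exon, the receptor with the highest level was FZD1 in both controls and FZD6 in siEF, and the next in each group was LRP5. Of the 13 receptors tested, 3 rose and 3 fell, beside the 28.8% of all genes tested that did either. A further 5 passed the adjusted P alone, which makes 11 of 13 past it, beside 65.4% of all genes tested.

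FZD1 (ENSG00000157240.3, chr7:91264433-91271326), a receptor that couples to beta-catenin, was at 68.1, 76.3 and 67.8 CPM in siEF, 156, 156 and 159 CPM in siNEG and 174, 172 and 172 CPM in media. It fell with a Log2FC of -1.15 (SE 0.049, adjusted P = 2.09e-12). The siEF libraries were all below the lowest control library. FZD8 (ENSG00000177283.7, chr10:35638247-35642296), a receptor of canonical ligands, was at 7.298, 9.21 and 8.02 CPM in siEF, 20.9, 22.2 and 22.3 CPM in siNEG and 26.6, 26.9 and 26.3 CPM in media, a Log2FC of -1.43 (SE 0.083, adjusted P = 1.15e-10). It too did not overlap with either control. FZD9 (ENSG00000188763.4, chr7:73433778-73436120) had 10, 10 and 5 counts in siEF, 23, 30 and 40 in siNEG and 29, 33 and 22 in media, a Log2FC of -1.53 (SE 0.418, adjusted P = 0.0035). Its call rested on single libraries, with a Log2FC of -1.19 (adjusted P = 0.0235) without siEF replicate 3 and -1.29 (adjusted P = 0.0209) without siNEG replicate 3. FZD9 also did not pass the test against the fold cut-off itself (glmTreat).

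FZD7 (ENSG00000155760.2, chr2:202033855-202038441) was the frizzled receptor that rose most. It was at 28.7, 30.6 and 30.02 CPM in siEF, 8.34, 8.104 and 7.76 CPM in siNEG and 6.43, 7.96 and 6.43 CPM in media, a Log2FC of 1.88 (SE 0.087, adjusted P = 6.53e-12). All siEF libraries lay above all controls. FZD6 (ENSG00000164930.12, chr8:103298433-103332866), better known for planar cell polarity, was at 58.4, 56.8 and 58.9 CPM in siEF and 29.4, 26.3 and 31.2 CPM in siNEG, a Log2FC of 1.002 (SE 0.072, adjusted P = 1.78e-09), just past the fold cut-off. In media it was lower again, at 17.99, 21.3 and 19.7 CPM. Its adjusted P against siNEG was 0.763 in the test against the fold cut-off itself, and its call was also lost with DESeq2 (Log2FC 0.985), with RLE scaling (0.992), with no filter (0.962), with the 6 libraries alone (0.997) and without any 1 of siEF replicates 1 and 3, siNEG replicates 1 and 2 and the 3 media replicates (0.927 to 0.997). FZD1, FZD2 and FZD7 are close paralogs, and these genes and LRP5 had a non-whole expected count in 1 to 3 libraries, so that their values are uncertain as far as RSEM split reads between genes.

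**Figure D2:**
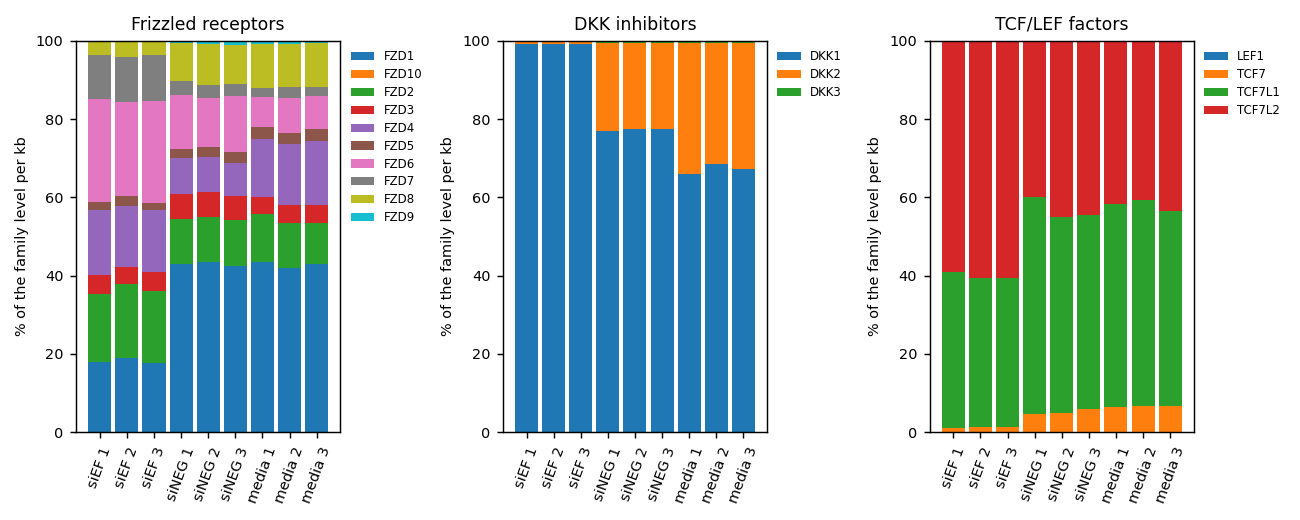
Share of each gene in the summed level per kb of exon (CPM per kb) of the frizzled, DKK and TCF/LEF families, in percent, with 1 bar per library that adds up to 100. FZD1 takes 17.6% to 19.0% of the siEF bars and 41.9% to 43.5% of the control bars, DKK2 is hardly visible in siEF, and TCF7L2 passes TCF7L1 in the siEF bars.

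Of the other receptors, ROR2 (ENSG00000169071.15, chr9:91563091-91950228), a tyrosine kinase-like receptor of WNT5A, was at 9.07, 7.98 and 9.19 CPM in siEF, 1.74, 1.36 and 2.15 CPM in siNEG and 0.882, 1.21 and 0.663 CPM in media. It rose with a Log2FC of 2.33 (SE 0.197, adjusted P = 1.54e-08) and did not overlap with either control. ROR1, its paralog, had a Log2FC of 0.86 (SE 0.071, adjusted P = 1.06e-08) against siNEG, short of the fold cut-off. ROR1 remained the more abundant of the pair per kb, with 4.81 ± 0.337 against 1.49 ± 0.113 CPM per kb (SD, n = 3) in siEF. The share of ROR2 in the pair went from 10.04 ± 1.79% in siNEG to 23.6 ± 1.85% in siEF (SD, n = 3).

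The coreceptors of the canonical pathway did not reach the fold cut-off. LRP6 (ENSG00000070018.9, chr12:12116025-12267044) was at 110.3, 100.1 and 111 CPM in siEF, 87.95, 93.5 and 92.96 CPM in siNEG and 86.1, 98.96 and 103 CPM in media, a Log2FC of 0.23 (SE 0.064, adjusted P = 0.00416) against siNEG. The siEF libraries lay above those of siNEG and overlapped with media. LRP5 (ENSG00000162337.12, chr11:68312591-68449275) was at 75.01, 78.3 and 69.5 CPM in siEF, 76.9, 75.2 and 76.6 CPM in siNEG and 71.4, 69.5 and 68.3 CPM in media. Its Log2FC of -0.039 (SE 0.053, adjusted P = 0.517), with a 95% interval from -0.14 to 0.06, did not pass, and became 0.047 with upper quartile scaling, which also raised the median over all genes from 0.046 to 0.132. FZD2 had a Log2FC of 0.72, FZD4 of 0.94 and FZD3 of -0.36, all past the adjusted P and short of the fold cut-off, and FZD5, at -0.21, did not pass. FZD10, the only receptor below the filter, had at most 1 count in a library.

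In the R-spondin axis, RSPO3, LGR6 and LGR4 rose, and LGR5 did not. LGR4 (ENSG00000205213.14, chr11:27365961-27472790), the receptor of the axis with the highest level in all groups, was at 208, 201 and 210.3 CPM in siEF, 77.5, 88.0 and 85.5 CPM in siNEG and 65.7, 70.9 and 74.6 CPM in media. It rose with a Log2FC of 1.303 (SE 0.056, adjusted P = 2.56e-12). LGR5, a stem cell marker and beta-catenin target, was nearly level with LGR4 per kb in siNEG (12.2 ± 0.1501 against 13.2 ± 0.861 CPM per kb) and at 9.73 ± 0.454 against 32.5 ± 0.742 CPM per kb in siEF (SD, n = 3). Its Log2FC was -0.33 (SE 0.053, adjusted P = 3.67e-05) against siNEG and -0.002 (SE 0.054, adjusted P = 0.973) against media.

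LGR6 (ENSG00000133067.17, chr1:202193799-202319781), a further R-spondin receptor, was at 3.36, 5.34 and 4.83 CPM in siEF, 0.253, 0.0884 and 0.385 CPM in siNEG and 0, 0 and 0.105 CPM in media, a Log2FC of 4.21 (SE 0.435) against siNEG. Since LGR6 passed the filter only with its siEF counts, no P is given for it. Against media, with 3 counts in all, the ratio was 134 (95% counting interval 45.6 to 654.5, exact). RSPO3 (ENSG00000146374.14, chr6:127118671-127199481), a ligand of these receptors, had 32, 18 and 17 counts in siEF, 0, 0 and 0 in siNEG and 4, 0 and 5 in media. RSPO3 was thus at least 9.38-fold higher with siEF than with siNEG, at a level of only 0.874 ± 0.287 CPM (SD, n = 3). The media libraries held 0.131, 0 and 0.175 CPM, so that the siNEG group had fewer counts than media, and the difference between siNEG and media did not pass (adjusted P = 0.0599). RSPO1 and RSPO2 had at most 2 counts in any library and RSPO4 had 0 in all.

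The secreted inhibitors held the largest difference in level. DKK1 (ENSG00000107984.10, chr10:52314281-52318042), which blocks LRP5 and LRP6 and is itself a beta-catenin target, had 11729, 9081 and 12066 counts in siEF, 1176, 1305 and 1127 in siNEG and 645, 781 and 689 in media, or 424, 445 and 414 CPM against 37.1, 38.5 and 36.1 and 21.1, 24.8 and 24.1 CPM. All 3 groups were separate. The Log2FC was 3.52 (SE 0.058, adjusted P = 4.08e-17) against siNEG and 4.197 (SE 0.061, adjusted P = 1.12e-17) against media. Its exons share 227 bases with the antisense gene PRKG1-AS1, which had 80 counts over the siEF libraries. DKK2 (ENSG00000155011.9, chr4:106921802-107283806), its paralog that also binds LRP6, moved the other way, from 21.3, 21.2 and 20.0 CPM in siNEG and 20.9, 21.9 and 22.6 CPM in media to 4.41, 4.75 and 4.18 CPM in siEF, a Log2FC of -2.24 (SE 0.086, adjusted P = 5.84e-13). The siEF libraries did not overlap with either control.

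DKK1 was thus the main DKK gene in all groups, and the summed DKK level per kb was 194 ± 7.33 CPM per kb in siEF, 21.7 ± 0.685 in siNEG and 15.6 ± 1.06 in media (SD, n = 3). DKK2 made up 22.2 ± 0.352% of it in siNEG and 0.528 ± 0.0142% in siEF. DKK3 (ENSG00000050165.17, chr11:11956207-12009769), a divergent member of the family, was at 7.95, 9.697 and 7.33 CPM in siEF, 1.42, 1.503 and 1.15 CPM in siNEG and 0.9796, 1.36 and 0.943 CPM in media, a Log2FC of 2.603 (SE 0.193, adjusted P = 2.71e-09). Its exons share 5681 bases with USP47 on the other strand, which had 6511 counts over the siEF and 8168 over the siNEG libraries. SFRP1 (ENSG00000104332.12, chr8:41261962-41309473), which binds WNT ligands, was at 2.96, 2.79 and 3.39 CPM in siEF, 0.253, 0.206 and 0.1603 CPM in siNEG and 0.392, 0.381 and 0.279 CPM in media, a Log2FC of 3.86 (SE 0.317). No P is given for SFRP1, which passed the filter only with its siEF counts. Every siEF library exceeded every control library for DKK3 and SFRP1.

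SFRP2 did not pass against siNEG (Log2FC 0.12 (SE 0.176, adjusted P = 0.563)) and was lower than in media, with a Log2FC of -0.82 (SE 0.168, adjusted P = 0.000332). DKK4 and SFRP5 had 0 counts in all libraries. NOTUM, a deacylase that inactivates WNT ligands, had 1, 0 and 1 counts in siEF and 0, 5 and 5 in siNEG, and SFRP4 and WIF1 had at most 4 counts in a library.

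None of the 5 cytoplasmic genes rose or fell past the fold cut-off, beside the 28.8% of all genes tested that did either. CTNNB1 (ENSG00000168036.18, chr3:41194741-41260096), which encodes beta-catenin, was at 333, 359.8 and 333 CPM in siEF, 238, 246 and 249 CPM in siNEG and 247, 275 and 245 CPM in media. Its Log2FC of 0.48 (SE 0.05, adjusted P = 1.97e-07) passed the adjusted P alone, with the siEF libraries above both controls. AXIN2 (ENSG00000168646.13, chr17:65528563-65561648), a negative regulator that serves as a reporter of beta-catenin activity, was at 3.36, 2.94 and 1.78 CPM in siEF, 2.37, 3.62 and 2.85 CPM in siNEG and 3.92, 2.95 and 3.56 CPM in media. The groups overlapped, and the Log2FC of -0.14 (SE 0.236, adjusted P = 0.603) had a 95% interval from -0.60 to 0.32, so that a difference within it is not excluded. The Log2FC changed sign to 0.10 without siEF replicate 3 and to 0.03 without siNEG replicate 2. AXIN1 had a Log2FC of -0.063, and NKD1 and NKD2, inhibitors of Dishevelled, of 0.29 (adjusted P = 0.0191) and 0.199.

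Of the DNA-binding partners, TCF7L2 and TCF7L1 rose. TCF7L2 (ENSG00000148737.17, chr10:112950247-113167678), an activator when bound to beta-catenin, was at 114, 104 and 119.9 CPM in siEF, 21.8, 23.2 and 24.7 CPM in siNEG and 23.6, 22.2 and 24.3 CPM in media, a Log2FC of 2.28 (SE 0.068, adjusted P = 2.71e-14). TCF7L1 (ENSG00000152284.5, chr2:85133392-85310387), mostly a repressor, was at 50.5, 43.2 and 49.2 CPM in siEF, 19.97, 17.1 and 18.1 CPM in siNEG and 19.3, 18.97 and 18.3 CPM in media, a Log2FC of 1.38 (SE 0.074, adjusted P = 4.63e-11). The siEF libraries of both lay above every control library, and siNEG and media overlapped. Per kb of merged exons, TCF7L1 was slightly ahead in siNEG with 51.8 ± 3.25% of the TCF/LEF sum against 43.1 ± 2.75% (SD, n = 3). In siEF the order was the other way, with 60.1 ± 0.864% for TCF7L2 and 38.6 ± 0.965% for TCF7L1 (SD, n = 3). The libraries did not overlap in either group, but with the length of the longest transcript in place of merged exons the siNEG shares were 48.7% and 45.1% and their libraries overlapped. The summed TCF/LEF level was 27.9 ± 1.995 CPM per kb in siEF and 8.02 ± 0.301 in siNEG (SD, n = 3).

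TCF7 (ENSG00000081059.20, chr5:134114681-134151865) was at 3.396, 3.48 and 3.98 CPM in siEF, 3.76, 3.74 and 5.03 CPM in siNEG and 5.32, 5.49 and 5.41 CPM in media. It did not pass against siNEG (Log2FC -0.203 (SE 0.155, adjusted P = 0.247)) and was lower than in media, with a Log2FC of -0.58 (SE 0.152, adjusted P = 0.00277). Its exons share 210 bases with SKP1 on the other strand, which had 4119 counts over the siEF and 24115 over the siNEG libraries. LEF1 (ENSG00000138795.10, chr4:108047545-108168956), a factor and target of the canonical pathway, had 0 counts in all siEF and siNEG libraries and 1, 1 and 2 in media, so that it was at or below the limit of 3 counts in each library.

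**Figure D3:**
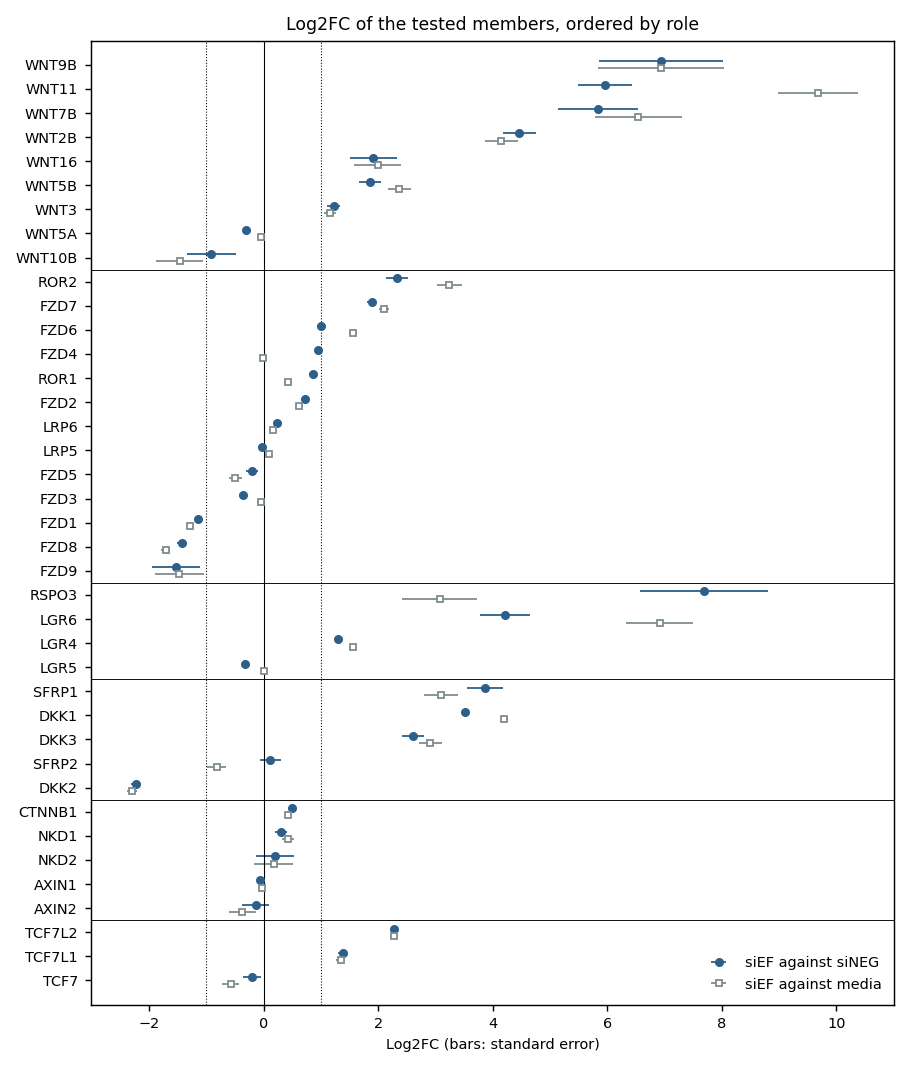
Log2FC of the 39 tested genes against siNEG (filled circles) and against media (open squares), grouped by role from the ligands at the top to the DNA-binding partners at the bottom, with bars for the standard error and dotted lines at a Log2FC of 1 in either direction. The controls give the same sign for the 22 genes that rose or fell against siNEG, while FZD4 lies at 0.94 against siNEG and -0.01 against media, and the values of RSPO3, WNT11, WNT7B, WNT9B and LGR6 depend on the small count that the fit adds.

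Against media, the same 18 genes rose, and 5 fell, among them the 4 that fell against siNEG and WNT10B. These were 59.0% of the 39 genes, beside 29.9% of all genes tested (17.4% higher and 12.5% lower). RSPO3, WNT11, WNT7B, WNT9B, LGR6, WNT16 and SFRP1, which passed the filter only with their siEF counts, are among the 18. The share and the median below thus include genes whose inclusion favoured a rise. Both comparisons use the same siEF libraries and are no independent evidence of each other. Of the genes that fell against media, FZD9 and WNT10B were lost without siEF replicate 1, media replicate 1 or media replicate 2, which left 3. At the adjusted P alone, 22 were higher and 8 lower (65.9% of all genes tested passed, 33.6% higher and 32.3% lower), and 22 higher and 8 lower did not overlap, beside 75.8% of all genes tested. The median Log2FC was 0.43 over the 39 genes and 0.044 over all.

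Between siNEG and media, none of the 39 genes was called, beside 0.429% of all genes tested (0.162% higher and 0.267% lower). An unadjusted P under 0.05 in edgeR's test was found for 20 of the 39, beside 4869 of all 16093 genes tested. DESeq2 also called 0. At the adjusted P alone, 6 were higher in siNEG (LGR4, LGR5, WNT5A, FZD3, FZD6 and DKK1) and 3 lower (FZD4, ROR1 and SFRP2), beside 9.79% of all genes tested (3.83% higher and 5.96% lower), and 10 higher and 8 lower did not overlap, beside 32.7%.

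FZD4, a receptor of norrin and WNT ligands, showed the largest of these differences. It was at 35.5, 34.8 and 33.9 CPM in siNEG, 63.9, 68.6 and 69.6 CPM in media and 67.8, 67.2 and 65.4 CPM in siEF. The siNEG libraries were thus the low group, and siEF and media overlapped. The Log2FC of siNEG against media was -0.96 (SE 0.054, adjusted P = 8.72e-09) and of siEF against media -0.012 (SE 0.053, adjusted P = 0.849). FZD4 shares 1399 exonic bases with PRSS23 on the other strand, which had 4417 counts over the siEF, 752 over the siNEG and 767 over the media libraries. LGR5 had the opposite pattern, with 64.5, 62.98 and 63.7 CPM in siNEG, 49.6, 51.4 and 51.7 CPM in media and 49.4, 49.5 and 53.5 CPM in siEF, as did FZD3, with 45.8, 44.3 and 46.4, 34.1, 38.1 and 38.1 and 36.4, 33.4 and 36.3 CPM. SFRP2 was at 6.11, 5.62 and 4.19 CPM in media, above all libraries of siNEG and siEF. For DKK1 and FZD6 the direction from media to siNEG, with a Log2FC of 0.68 and 0.56, was that of siNEG to siEF.

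**Figure D4:**
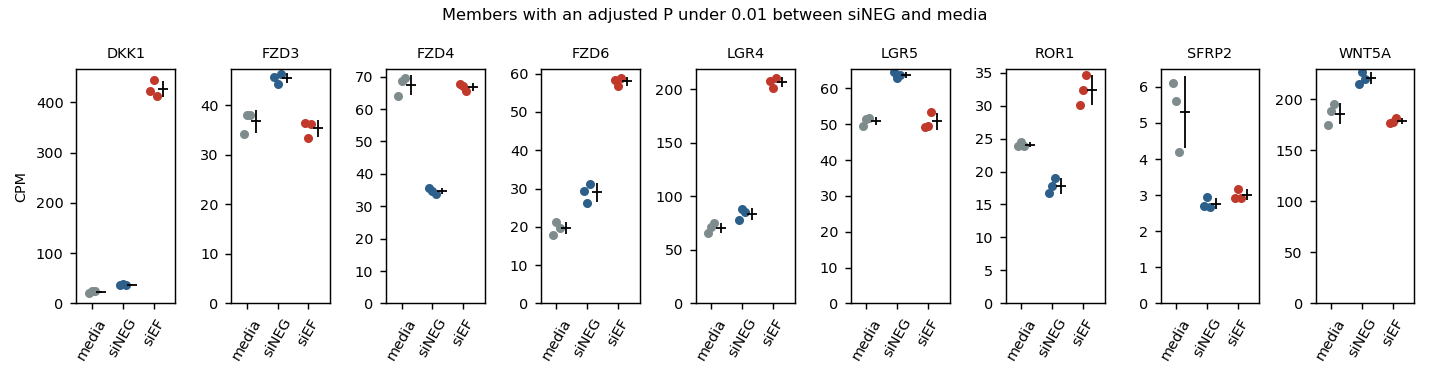
Level in CPM (linear axis from 0) of the 9 genes with an adjusted P under 0.01 between siNEG and media, with 1 dot per library and a black cross for the mean with its SD (n = 3). FZD4 is low in siNEG alone, FZD3, LGR5 and WNT5A are high in siNEG alone, and the means of DKK1, FZD6 and LGR4 are lowest in media and highest in siEF.

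Another 60 genes of the pathway were examined in the same fit, from a list drawn up by role, from the secretion of ligands to the nuclear cofactors of beta-catenin and the planar cell polarity branch. Of these, 55 were tested, and 14 rose and 5 fell in siEF against siNEG, which was 34.5% beside the 28.8% of all genes tested. The median Log2FC of the 55 was 0.57. NDP, KREMEN2, DACT3 and PRICKLE1, which passed the filter only with their siEF counts, are among the 14. The share and the median thus include genes whose inclusion favoured a rise, and the share is not read as a difference from all genes. At the adjusted P alone, 33 were higher and 11 lower, beside 33.6% and 31.7% of all genes tested. Neither gene of ligand secretion passed, with a Log2FC of 0.034 for WLS, the carrier of WNT proteins, and 0.39 (adjusted P = 0.0299) for PORCN, which acylates them.

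In the planar cell polarity branch, 5 of 9 genes rose and 1 fell, beside 17.1% and 11.7% of all genes tested. DAAM1, a formin downstream of Dishevelled, was at 38.6, 33.5 and 38.3 CPM in siEF and 4.61, 5.01 and 4.23 CPM in siNEG, a Log2FC of 2.995 (SE 0.092, adjusted P = 3.97e-14). PRICKLE2 rose with a Log2FC of 1.92, CELSR3 of 1.79, PRICKLE1 of 1.57 and VANGL2 of 1.22, while CELSR2 fell by 1.12 on the log2 scale. CELSR2 did not pass the test against the fold cut-off itself (glmTreat, adjusted P = 0.0357), and neither did PRICKLE1. All 9 passed the adjusted P, as did 65.4% of all genes tested. The call of PRICKLE1, with 31, 23 and 40 counts in siEF and 17, 9 and 13 in siNEG, was lost without siEF replicate 3 (Log2FC 1.46), siNEG replicate 2 (1.32) or siNEG replicate 3 (1.58). PRICKLE1 passed the filter only with its siEF counts, so that no P against siNEG is given for it.

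Of the 19 cytoplasmic genes tested, DACT1 and DACT3, which bind Dishevelled, rose and AMER1, a scaffold of the destruction complex, fell. These were 15.8% of the 19, below the 28.8% of all genes tested that did either. DACT1 was at 12.8, 13.96 and 11.9 CPM in siEF and 0.758, 0.471 and 0.673 CPM in siNEG, a Log2FC of 4.34 (SE 0.18, adjusted P = 1.58e-12). DACT3 had 88, 43 and 87 counts in siEF and 3, 2 and 2 in siNEG, a ratio of 39.0 (95% counting interval 18.6 to 98.2, exact). It too passed the filter only with its siEF counts. AMER1 had a Log2FC of -1.49 (SE 0.085, adjusted P = 9.03e-11). The other cytoplasmic genes tested had Log2FC values short of the cut-off or did not pass, such as 0.13 for APC, 0.42 for GSK3B and -0.56 for DVL1.

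Among 12 nuclear cofactors, 4 rose and none fell, near the 28.8% of all genes tested that did either. TLE4, a Groucho corepressor that TCF factors recruit, was at 49.97, 46.5 and 48.98 CPM in siEF and 6.002, 6.57 and 6.22 CPM in siNEG, a Log2FC of 2.95 (SE 0.088, adjusted P = 2.92e-14). TLE1, another Groucho corepressor, had a Log2FC of 1.79, CTNNBIP1, which keeps beta-catenin from TCF factors, of 1.78, and BCL9L, a coactivator, of 1.58. Genes with opposite roles for beta-catenin were thus among those that rose.

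Of the other receptors and secreted or surface proteins, NDP, which encodes the FZD4 ligand norrin, rose from 2, 3 and 5 counts in siNEG to 80, 58 and 64 in siEF, with a fitted Log2FC of 4.62. KREMEN2, a DKK1 receptor, had 13, 8 and 21 counts in siEF, 7, 2 and 3 in siNEG and 10, 7 and 7 in media. It was called against siNEG (Log2FC 2.07) and not against media (1.005, adjusted P = 0.0728), and the first call was lost without siEF replicate 3 (1.77), siNEG replicate 2 (1.71) or siNEG replicate 3 (1.91) and with DESeq2 or glmTreat. Like PRICKLE1 and DACT3, NDP and KREMEN2 were tested only through their siEF counts, so that no P against siNEG is given for them. PTK7, a WNT coreceptor, rose with a Log2FC of 1.18. FRZB, a secreted WNT antagonist of the SFRP family, was at 16.3, 18.4 and 14.7 CPM in siEF and 41.6, 43.8 and 42.99 CPM in siNEG, and fell with a Log2FC of -1.39 (SE 0.078, adjusted P = 7.3e-11). ZNRF3, the ubiquitin ligase that removes frizzled receptors and is inhibited by R-spondins, fell with a Log2FC of -1.29 and TSPAN12, a partner of FZD4, of -1.26. TSPAN12 did not pass the test against the fold cut-off itself (glmTreat, adjusted P = 0.0336).

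**Figure D5:**
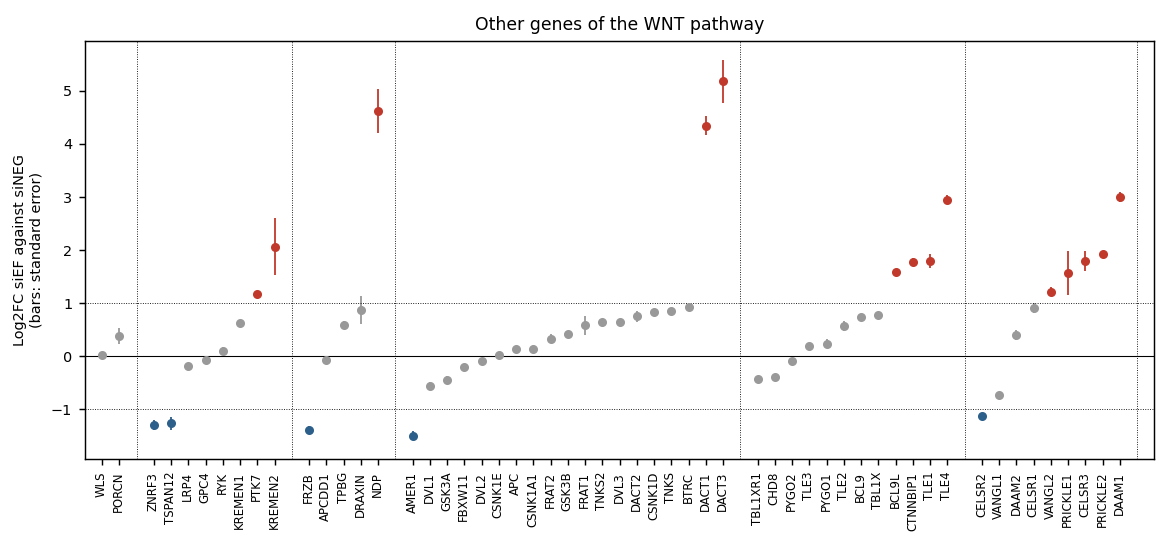
Log2FC of siEF against siNEG for the 55 further pathway genes tested, with bars for the standard error, dotted lines at a Log2FC of 1 in either direction and vertical lines between ligand secretion, other receptors, other secreted or surface proteins, cytoplasmic genes, nuclear cofactors and planar cell polarity genes. The 14 genes that rose are red, the 5 that fell are blue and the rest are grey, and the bars of DACT3 and NDP rest on 7 and 10 counts in siNEG.

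A list of 13 genes known as targets of beta-catenin, 9 of them tested and some of them among the genes above, did not move in one direction. DKK1 rose, and CCND1, MYC and ZNRF3 fell, together 44.4% of those tested, beside 28.8% of all genes tested. CCND1, a cyclin and Ewing sarcoma marker, was at 92.2, 103 and 90.9 CPM in siEF and 1776, 1915 and 1913 CPM in siNEG, a Log2FC of -4.29 (SE 0.058, adjusted P = 6.51e-18), and MYC had a Log2FC of -1.25. LGR5 passed the adjusted P alone. TCF7, NKD1, AXIN2 and APCDD1 (Log2FC -0.060) did not pass, and LEF1, NOTUM, RNF43 and SP5 were below the filter on low counts.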

How the data were processed

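RNA-seq of TC32 cells was analysed in 9 libraries. According to the methods and the labels, the authors trimmed reads with cutadapt 2.10, mapped them to hg38 with STAR 2.7.1a and quantified genes with RSEM 1.3.1, and deposited expected counts per gene that are neither scaled for depth nor pooled. The strand setting and annotation release were not given in the sources used here, so that reads of overlapping antisense genes cannot be told apart. The labels name polyA RNA and a small RNA library kit.

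Expected counts were rounded, scaled by TMM, filtered with filterByExpr and compared by quasi-likelihood tests in edgeR 4.0.16 (R 4.3.3), in 1 fit of 16093 genes over all 9 libraries, with Benjamini-Hochberg adjustment. A gene was called, or rose or fell, at an adjusted P under 0.01 and a Log2FC beyond 1, the cut-offs of the study. CPM is the count relative to the TMM-scaled library total, and CPM per kb divides it by the merged exon length in GENCODE 44 (GRCh38), in which positions are given. A group at 0 was set to 3 counts per library for a lower bound. With up to 3 counts in each library, the ratio of summed counts has an exact 95% Clopper-Pearson counting interval (scipy 1.17.1). On simulated data (15743 genes, siEF against siNEG), 198 of 200 genes changed by a Log2FC of 2 were called, with 1 false call. The changed genes were drawn only from those above a limit on expected counts. This rate therefore does not cover genes with few counts or smaller changes.

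Given with values in every library are the genes called between siEF and siNEG, the gene with the highest level per kb in siNEG in each role, and CTNNB1, AXIN2, LEF1, TCF7, TCF7L1, TCF7L2, DKK1, LRP5 and LRP6, and some others by their counts. FZD3, FZD4, LGR5 and SFRP2 were added after their values were seen. Of the other pathway genes, those called are named, with WLS, PORCN, APC, GSK3B, DVL1 and APCDD1 added later. The genes and lists were chosen with earlier results of these data known. The alternatives tried were scaling by RLE or upper quartile, DESeq2 1.42.0, other filters and cut-offs, glmTreat, the 6 libraries alone, both controls pooled, unrounded counts, a replicate block, longest transcript lengths and leaving out each library. Libraries of a group differed by more than sampling noise (chi-square per degree of freedom 3.42 to 21.4).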

Additional observations from a re-analysis of the deposited data

How the results depend on the processing

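Of the values of single genes recomputed under the alternatives, 534 kept their direction and side of the cut-offs, 17 lost the call, 2 gained it and 5 changed sign. The last were those of LRP5 (0.047 with upper quartile scaling, 0.025 with both controls pooled and 0.007 without siEF replicate 3, in a range from -0.08 to 0.007 over the left-out libraries) and of AXIN2 (0.097 without siEF replicate 3 and 0.028 without siNEG replicate 2, in a range from -0.351 to 0.097), neither of which had passed. With at least 10 counts in every library, 10 members rose and 3 fell against siNEG, and 10 rose and 3 fell against media, since fewer genes were tested. No share of all genes is given under that filter. Without the fold cut-off, 7 fell against siNEG and 8 against media, 6 were higher and 3 lower in siNEG than in media, and 33 of the other pathway genes were higher and 11 lower. With glmTreat, 3 members fell against media and 3 other pathway genes fell against siNEG. With no filter on low counts, or at an adjusted P under 0.05, 1 gene (LGR6) was higher in siNEG than in media. With each library left out in turn, between 17 and 19 members rose and between 3 and 5 fell against siNEG, between 18 and 20 rose and between 3 and 5 fell against media, between 0 and 1 were higher and between 0 and 1 lower in siNEG than in media, and between 12 and 14 of the other pathway genes rose and 5 fell. The genes higher in siNEG were ROR2 without siNEG replicate 2 or media replicate 2 and LGR6 without media replicate 3, where SFRP2 was lower. DESeq2 called 21 of the 22 genes that rose or fell against siNEG, without FZD6 and with WNT10A added, and its median over all genes against media was 0.233 in place of 0.044. With the longest transcript in place of merged exons, WNT5A made up 93.4% of the WNT level in siNEG and DKK1 77.9% of the DKK level, beside 94.8% and 77.3%.

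The replicate numbers did not pair the libraries, since the correlations of same-numbered deviations lay between -0.088 and 0.048. With the replicate block, the same 22 members were called against siNEG, 22 against media (without FZD9) and 0 between siNEG and media. Depth limits the genes with few counts, since a group at 0 allows up to 3 counts, or 0.0884 to 0.147 CPM, in a library.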

Other observations

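Between siNEG and media, 10 of the 55 other pathway genes tested had an adjusted P under 0.01, with 4 higher and 6 lower in siNEG. This stands beside 9.79% of all genes tested (3.83% higher and 5.96% lower), and none of the 55 passed the fold cut-off. An unadjusted P under 0.05 (edgeR's quasi-likelihood test) was found for 22 of the 55, beside 4869 of all 16093 genes tested. RYK, a receptor of WNT ligands, was at 46.2, 50.2 and 47.6 CPM in siNEG, 78.9, 80.8 and 83.3 CPM in media and 52.4, 47.9 and 54.8 CPM in siEF, so that both siRNA groups lay below media. TPBG, a surface inhibitor of WNT signalling, was at 27.6, 26.2 and 28.7 CPM in siNEG, 42.9, 41.2 and 40.9 CPM in media and 43.2, 40.9 and 40.8 CPM in siEF, the same order of groups as FZD4. The Log2FC of siNEG against media was -0.75 (SE 0.059, adjusted P = 2.55e-07) for RYK and -0.602 (SE 0.059, adjusted P = 2.91e-06) for TPBG. PRICKLE2 and CTNNBIP1 were higher in siNEG than in media, with a Log2FC of 0.76 and 0.73, and rose further in siEF. TBL1XR1, CELSR1, BTRC and BCL9L were lower in siNEG, with a Log2FC between -0.43 and -0.18, and CHD8 and AMER1 higher, with 0.23 and 0.39. These genes were chosen after their values were seen.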
